A study of Gallus gallus with 6 samples.

Results

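The GATA transcription factors and the ZFPM proteins that bind them are described here from RNA-seq of 2 regions of the chick embryo gut, ceca and interceca. All genes whose symbol is GATA or ZFPM followed by a single digit were taken, which gave 7 of the 17108 genes listed. They are GATA2, GATA3, GATA4, GATA5, GATA6, ZFPM1 and ZFPM2. The family was chosen by the ceca and interceca RPKM of these same libraries, so the differences between the tissues are described for these genes and not tested. The samples were 3 libraries of ceca, the paired blind outgrowths at the junction of small and large intestine, and 3 of the region labelled interceca, all taken from embryos at day 5 of incubation (HH stage 26), with no genetic change or treatment given in the labels. Nothing in the labels ties the libraries to separate embryos or pools. The p-values therefore reflect the spread between samples alone, and that spread may be technical.

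GATA proteins carry a pair of zinc fingers and bind DNA at sites with the core letters GATA. GATA2 and GATA3 are best known from blood progenitors and neurons, and GATA4, GATA5 and GATA6 from the heart and from endoderm-derived organs such as gut and liver. ZFPM1 and ZFPM2, also called friend of GATA, do not bind DNA as GATA factors do. They bind the amino-terminal finger of a GATA factor and recruit corepressors such as the NuRD complex and CtBP. In the mouse gut GATA4 is an epithelial factor of the proximal small intestine, whereas GATA6 is expressed along the whole intestine.

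The libraries held between 15498414 and 22436431 recovered reads, and the limit that a count of 0 allows, 3 reads, was 1.34e-05% to 1.94e-05% of them (counting error only). FOXF1, a factor of gut mesenchyme, had means of 326 ± 15.9 RPKM in ceca and 321 ± 7.78 RPKM in interceca (SD, n = 3 each). EPCAM, an epithelial adhesion molecule, was at 69.0 ± 12.5 against 236 ± 49.1 RPKM. RPKM divide reads by both library size and the length of the gene, so levels between genes are compared per length. Each log2 difference compares ceca with interceca after adding 0.5 to the RPKM, which shrinks the difference of low genes, and has a standard error (SE).

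GATA6 had the highest level of the 7 genes in interceca and lay far lower in ceca. Its level was 2.56, 5.57 and 5.49 RPKM in ceca replicates 1 to 3 and 32.3, 33.5 and 38.8 RPKM in interceca replicates 1 to 3. Every interceca library lay above every ceca library, and ceca replicate 1 was the lowest. The mean was 4.54 ± 1.71 RPKM in ceca and 34.9 ± 3.49 RPKM in interceca, which is 7.68-fold higher in interceca, with a log2 difference of -2.87 ± 0.25 (SE). Without ceca replicate 1 the log2 difference was -2.55. These levels rested on 272 reads in ceca and 1877 in interceca. The gene length implied by the RPKM steps was 900 bases for GATA6, the shortest of the 7.

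GATA5, the relative of GATA6 that shares its endodermal and cardiac roles, also lay lower in ceca. It stood at 3.74, 3.36 and 3.48 RPKM in ceca replicates 1 to 3 and at 10.8, 12.4 and 8.53 RPKM in interceca replicates 1 to 3. The ceca libraries were close together and the lowest interceca library was still above all of them. The mean was 3.00-fold higher in interceca, with a log2 difference of -1.44 ± 0.14 (SE), over 271 and 723 reads. In interceca the libraries did not follow the order of GATA6, since replicate 3 was the lowest for GATA5 and the highest for GATA6. In ceca replicates 1 to 3 the GATA5 levels came from 91, 91 and 89 reads, so their order lay within counting error.

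GATA4, which in other species shares gut, heart and gonad roles with GATA6, was barely detected. It had 2, 4 and 0 reads in ceca replicates 1 to 3 and 1, 6 and 10 reads in interceca replicates 1 to 3. The levels were 0.0583 ± 0.0563 RPKM in ceca and 0.172 ± 0.121 RPKM in interceca, below the filter on low values. In interceca replicate 3, the highest library, the exact Poisson 95% interval was 0.135 to 0.517 RPKM, and in ceca replicate 3 a count of 0 with the limit of 3 reads allowed up to 0.0893 RPKM. The libraries of the tissues overlapped, over 6 reads in ceca and 17 in interceca, and the difference was not tested.

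GATA2 was low in both tissues and varied between libraries. It was at 1.27, 2.40 and 1.47 RPKM in ceca replicates 1 to 3 and at 3.81, 2.11 and 2.33 RPKM in interceca replicates 1 to 3. Ceca replicate 2 lay above the 2.11 and 2.33 RPKM of interceca, so the tissues overlapped. The log2 difference of -0.55 ± 0.25 (SE) was -0.33 without interceca replicate 1, the library with the highest value, and -0.76 without ceca replicate 2.

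GATA3, the closest relative of GATA2, was at 0.126, 0.131 and 0.120 RPKM in ceca replicates 1 to 3, from 13, 15 and 13 reads. In interceca replicates 1 to 3 it was at 0.433, 0.781 and 0.836 RPKM, from 34, 78 and 96 reads. The tissues did not overlap, and interceca replicate 1 was the lowest of its tissue. The gene stayed below the filter, and its mean was 5.44-fold higher in interceca. On the log2(RPKM + 0.5) scale the difference was -0.90 ± 0.15 (SE), and on recovered reads with limma-voom, which has a smaller offset, it was -2.40.

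ZFPM2 lay in the opposite direction. It was at 20.8, 20.2 and 20.9 RPKM in ceca replicates 1 to 3 and at 3.07, 2.76 and 3.58 RPKM in interceca replicates 1 to 3. The ceca libraries were nearly equal, and every one lay well above interceca. The mean was 20.7 ± 0.363 against 3.14 ± 0.418 RPKM, a 6.59-fold difference with a log2 value of 2.55 ± 0.10 (SE), over 6484 reads in ceca and 893 in interceca. By size of log2 difference it ranked 9 from the top among the 10678 genes tested, while GATA6 ranked 25 from the bottom.

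ZFPM1, the other friend of GATA gene and in the mouse a GATA1 cofactor of blood formation, differed less than ZFPM2 and in the same direction. It stood at 9.10, 7.88 and 8.97 RPKM in ceca replicates 1 to 3 and at 6.21, 6.43 and 6.50 RPKM in interceca replicates 1 to 3. The ceca libraries lay above the interceca libraries without overlap. The log2 difference was 0.41 ± 0.09 (SE), a mean 1.36-fold higher in ceca.

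**Figure D1:**
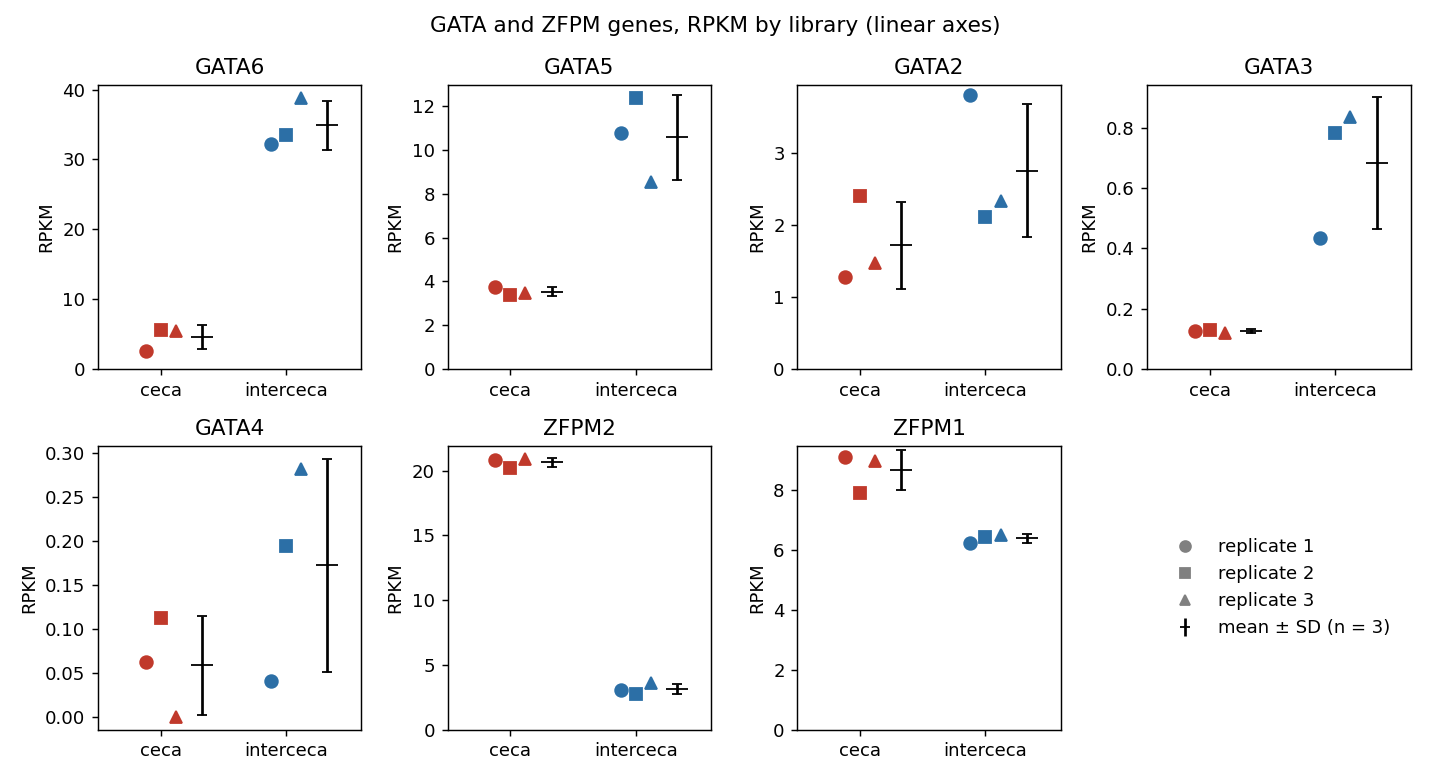
RPKM of the 7 genes in each library (linear axes, a different scale in each panel), with ceca in red, interceca in blue, a symbol for each replicate number, and black bars for the mean ± SD of 3 libraries. GATA6, GATA5 and GATA3 lie higher in interceca and ZFPM2 and ZFPM1 higher in ceca without overlap, while GATA2 and GATA4 overlap.

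Of the 7 genes, 5 had libraries that did not overlap between the tissues, 4 of them among the 5 genes that passed the filter. Over all 10678 genes tested the libraries did not overlap for 44.1%, with ceca above for 23% and interceca above for 21.1%, and since the family was chosen by these values, nothing is read from its own count. A log2 difference of 2 or more was seen for 0.215% of the genes tested, ZFPM2 among them, and one of -2 or less for 1.14%, GATA6 among them. In the authors' deposited table the log2 fold changes were -2.94 for GATA6, -1.58 for GATA5, -0.67 for GATA2, 0.44 for ZFPM1 and 2.71 for ZFPM2, with -2.45 for GATA3 and -1.55 for GATA4, the genes with few reads.

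**Figure D2:**
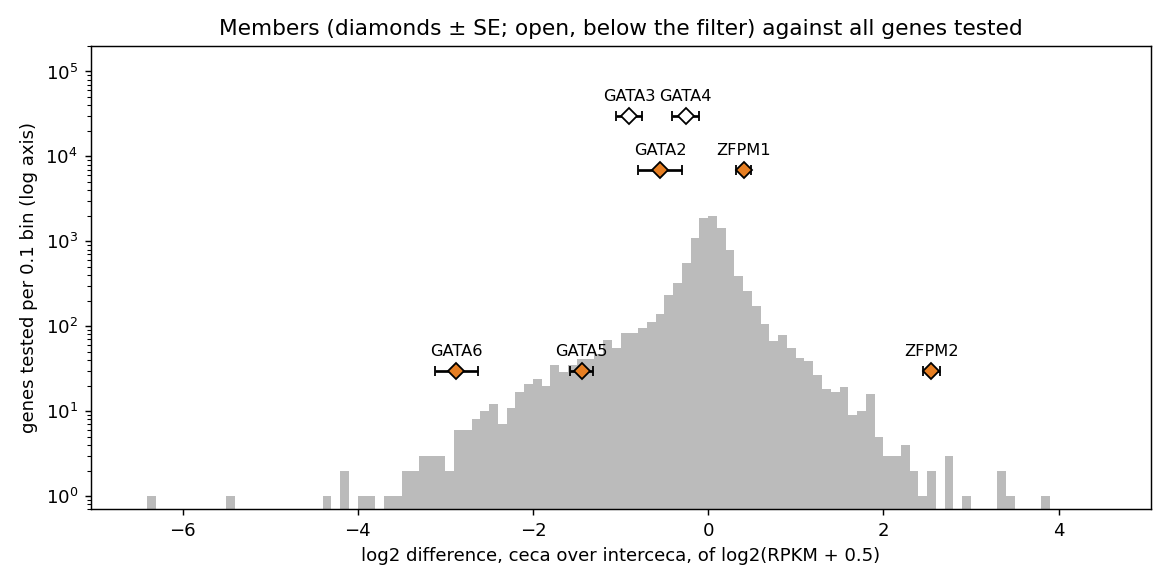
Histogram of the log2 difference, ceca over interceca, of all 10678 genes tested (grey, log count axis), with the 7 genes as diamonds ± SE placed at their value on the horizontal axis (their height has no meaning). ZFPM2 at 2.55 and GATA6 at -2.87 lie in the outer tails. ZFPM1 at 0.41, rank 939 from the top, and GATA2 at -0.55, rank 957 from the bottom, lie nearer the centre. The median absolute log2 difference over all genes tested is 0.15.

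The coefficient of variation over the 3 libraries is given beside the counting error of the recovered reads as a description of precision, since separate libraries can differ by more than counting. For ZFPM2 it was 1.76% in ceca and 13.3% in interceca, where counting gives 2.15% and 5.95%. For GATA6 it was 37.7% in ceca and 9.9997% in interceca, where counting gives 11.4% and 4.10%. For GATA5 it was 5.51% and 18.4%, with 10.5% and 6.52% from counting. GATA2 varied by 35.3% and 33.6%, with 10.2% and 8.36% from counting, and ZFPM1 by 7.75% and 2.32%, with 4.22% and 5.25% from counting. For GATA3 the values were 4.24% and 32.02%, with 27.1% and 13.2% from counting. Among the 5 genes past the filter, the spread was widest for GATA6 and GATA2 in ceca and for GATA2 in interceca.

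The order of levels differed between the tissues. In interceca it ran from GATA6 through GATA5, ZFPM1, ZFPM2, GATA2 and GATA3 to GATA4, and the libraries of ZFPM2 and GATA2 overlapped while all other neighbours in the order were separate. In ceca it ran from ZFPM2 through ZFPM1, GATA6, GATA5, GATA2 and GATA3 to GATA4, and GATA6 and GATA5 overlapped. GATA6 and GATA5 thus led the order in interceca and stood behind both ZFPM genes in ceca.

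Summed over GATA2 to GATA6, the level was 9.97 ± 1.97 RPKM in ceca and 49.1 ± 1.74 RPKM in interceca (SD, n = 3 each). GATA6 made up 71.0 ± 4.70% of this sum in interceca and 44.4 ± 10.01% in ceca. The share of GATA5 was 21.6 ± 4.37% and 36.7 ± 10.1%, and that of GATA2 5.64 ± 2.08% and 17.0 ± 3.48%. In ceca replicate 1 GATA5 exceeded GATA6, with a ratio of GATA6 to GATA5 of 0.686, whereas the ratio was 2.71 to 4.55 in interceca.

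The ZFPM genes summed to 29.3 ± 1.03 RPKM in ceca and 9.52 ± 0.492 RPKM in interceca. ZFPM2 was 70.5 ± 1.28% of the sum in ceca and 32.9 ± 2.78% in interceca, so the more abundant ZFPM gene was ZFPM2 in ceca and ZFPM1 in interceca in all libraries. The summed ZFPM level was 2.43 to 3.86 times the summed GATA level in ceca libraries and 0.187 to 0.198 times in interceca libraries. These ratios restate the values that chose the family and carry no test.

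**Figure D3:**
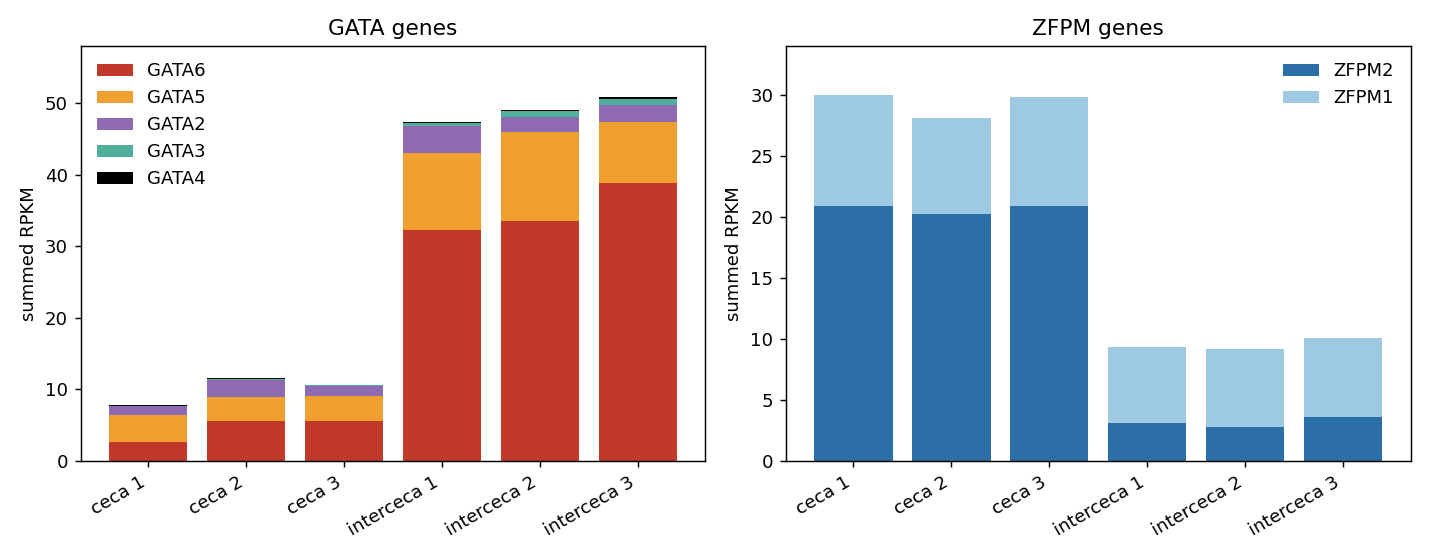
Stacked bars of RPKM in each library (axes start at 0), the 5 GATA genes on the left and the 2 ZFPM genes on the right. GATA6 takes most of the bar in interceca, and the GATA bars are low in ceca where the ZFPM2 part of the other bars is high.

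Marker lists of cell types of the gut were read beside these genes. Of 18 gut epithelial markers all were listed, 13 were tested, and 12 were lower in ceca, against a background of 14.1% of genes lower and 27.5% called in either direction (limma, adjusted p under the threshold of 0.05 over all genes tested). The 4 with the smallest p were GUCY2C, CLDN1, TMPRSS2 and IHH, with log2 differences of -4.15 ± 0.14, -3.42 ± 0.22, -2.67 ± 0.18 and -2.42 ± 0.22. KRT8 and KRT18, keratins of simple epithelia, were listed at 0 in every library. Whether such values reflect absent RNA or the annotation was not tested. The remaining tested marker, KRT19, had a log2 difference of -0.63 ± 0.22 (adjusted p = 0.0695, and 0.000565 with the replicate block, limma, in a range of 0.000565 to 0.193 over the alternatives). The summed markers ran from 153 to 237 RPKM in ceca and from 628 to 933 RPKM in interceca, a 3.83-fold difference of the means. Within ceca the lowest sum, 153 RPKM, was in replicate 1, the library with the lowest GATA6.

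GATA6 per 100 RPKM of these markers was 1.67, 2.35 and 2.40 in ceca replicates 1 to 3 and 5.14, 4.14 and 4.16 in interceca replicates 1 to 3. GATA5 per 100 RPKM of the same markers was 2.44, 1.42 and 1.52 in ceca and 1.72, 1.53 and 0.914 in interceca. These ratios reuse the values that chose the family, so nothing is read from whether they overlap. They also depend on which markers carry the sum, which weights abundant ones. Log2 differences of the tested markers ran from -4.15 for GUCY2C to -0.63 for KRT19, beside -2.87 for GATA6 and -1.44 for GATA5. The part of epithelial content in the lower GATA5 and GATA6 was not tested, and in whole tissue fewer cells of a type and less RNA per cell cannot be told apart.

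Smooth muscle markers were also lower in ceca, 6 of 8 tested, or 75% beside 14.1% of all genes. Their sums were 311 to 347 RPKM in ceca and 623 to 654 RPKM in interceca. TAGLN and MYH11, contractile proteins, had log2 differences of -2.42 ± 0.05 (adjusted p = 5.16e-07, limma) and -2.56 ± 0.11 (adjusted p = 5.89e-06, limma). MYOCD, the coactivator myocardin, and DES, desmin, had log2 differences of -1.13 ± 0.06 and -1.04 ± 0.06. Their part in the GATA levels was not tested.

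Markers of mesothelium and coelomic epithelium, the outer lining of the gut, differed in both directions. Of 13 tested, 7 were higher in ceca (53.8%, against 13.5% of all genes) and 3 were lower (23.1%, against 14.1%). With the replicate block 8 were higher and 4 lower, among 1879 genes higher and 1888 lower over all genes tested. WT1, a zinc finger factor of this lining, was at 188 ± 13.9 against 27.8 ± 3.45 RPKM, OSR2 at 130 ± 13.4 against 8.78 ± 2.65 RPKM, and BNC1, basonuclin, at 42.8 ± 2.47 against 22.9 ± 1.99 RPKM. TCF21, a helix-loop-helix factor of coelomic mesenchyme, was at 47.1 ± 2.72 against 32.7 ± 1.05 RPKM. The 3 that were lower were MSLN, mesothelin, the uroplakin UPK1B and the semaphorin SEMA3D, with log2 differences of -2.27 ± 0.15, -2.54 ± 0.20 and -0.68 ± 0.12. Without interceca replicate 2 or 3, and at a filter of 5 RPKM, 1 was lower, since MSLN and UPK1B no longer passed the filter. Both reached 1 RPKM only in interceca, and neither lost its call in any alternative where it was tested. NR5A1 and LHX9, which act with GATA4 and ZFPM2 in the gonadal ridge of the mouse, stayed below 0.1 RPKM in every library, at means of 0.0138 and 0.00988 RPKM in ceca.

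The summed level of these markers was 558 to 603 RPKM in ceca and 192 to 212 RPKM in interceca, a 2.83-fold difference. ZFPM2 per 100 RPKM of them was 3.73, 3.54 and 3.46 in ceca replicates 1 to 3 and 1.59, 1.33 and 1.69 in interceca replicates 1 to 3. The ratio reuses the ZFPM2 values that chose the family, so nothing is read from whether it overlaps. It also depends on which markers carry the sum, which weights abundant ones. Log2 differences of the tested markers ran from -2.54 for UPK1B to 3.85 for OSR2, with 2.74 for WT1, beside 2.55 for ZFPM2. The part of this cell type in the ZFPM2 level was not tested.

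**Figure D4:**
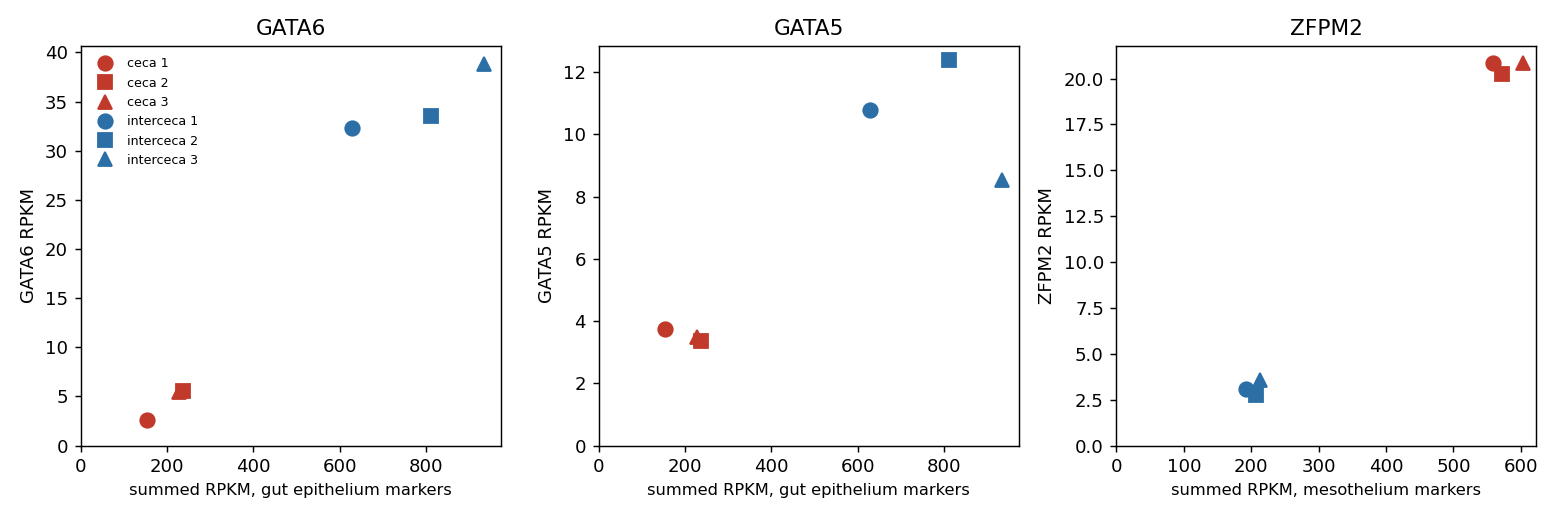
RPKM of GATA6, GATA5 and ZFPM2 against the summed RPKM of gut epithelial markers (left and middle) or mesothelium markers (right) in each library, ceca in red and interceca in blue, linear axes from 0. Ceca replicate 1 is lowest on both axes for GATA6, while for GATA5 the interceca library with the highest marker sum has the lowest level of its tissue.

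Endothelial markers summed to 168 to 183 RPKM in ceca and 143 to 180 RPKM in interceca. Of 10 tested, 1 was higher in ceca, or 10% beside 13.5% of all genes. That gene, the endothelial cadherin CDH5, had an adjusted p of 0.0482 (limma), which 8 of the alternatives ended, among them leaving out any 1 ceca library (0.0902 to 0.122) or interceca replicate 1 or 3 (0.0613 and 0.0716). TEK, an endothelial receptor, lay the other way, at 1.30 ± 0.259 against 1.79 ± 0.0847 RPKM without overlap. It did not pass (adjusted p = 0.135, limma) but was called lower with limma-voom (0.0302). Of 3 red blood cell markers tested 0 passed with limma, beside 27.5% of all genes. The globins HBZ and HBE had an unadjusted p under 0.05 in that fit. HBE was called with the replicate block (adjusted p = 0.0252, limma) and with limma-voom (0.0389), and both were called without interceca replicate 1 (0.0146 for HBZ and 0.0245 for HBE, limma). The summed red blood cell markers ran from 430 to 474 RPKM in ceca and from 331 to 425 RPKM in interceca. HBAA, HBAD and SLC4A1 of that list stood at 0 in every library, and whether their RNA was absent was not tested.

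Of 7 genes of enteric neural crest and neurons tested, EDNRB, an endothelin receptor, was lower in ceca (adjusted p = 0.0214, limma, and 0.0748 without interceca replicate 2 or without interceca replicate 3) and 6 did not pass. This is 14.3% lower, beside 14.1% of all genes. With the replicate block 4 were lower and with limma-voom 3. The count was 3 on leaving out ceca replicate 1 and 5 on leaving out ceca replicate 2. All the tested genes had negative log2 differences, from -1.23 for DBH to -0.17 for TUBB3, with a median of -0.89. All but ELAVL4 had an unadjusted p under 0.05 (limma). The summed level of the list ran from 737 to 851 RPKM in ceca and from 880 to 908 RPKM in interceca. Most of that sum was TUBB3, at 765 ± 64.4 against 855 ± 10.1 RPKM, so it says little of the other genes. RET was at 2.00 ± 1.22 against 3.99 ± 0.199 RPKM.

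Factors that act with GATA proteins in endoderm were mostly lower in ceca. Of the 20 genes listed, 15 were found and 11 tested, and 7 were lower, 1 was higher and 3 did not pass, with a median log2 difference of -1.64 beside 0.01 over all genes tested. These are 63.6% lower and 9.09% higher, beside 14.1% and 13.5% of all genes. HNF4A, a nuclear receptor of gut and liver epithelium that the files list under an older symbol, was at 1.78 ± 0.372 against 10.5 ± 0.825 RPKM (log2 difference -2.28 ± 0.14 SE, adjusted p = 2.8e-05, limma). HNF4G and CDX1 had log2 differences of -2.61 ± 0.16 and -3.02 ± 0.26. CDX2, an intestinal homeobox factor, was the 1 gene higher in ceca, at 7.56 ± 2.32 against 3.48 ± 0.820 RPKM (log2 difference 0.99 ± 0.24, adjusted p = 0.0171, limma). That call was lost on leaving out replicate 2 or 3 of either tissue, at an adjusted p of 0.0555 and 0.0648 for the ceca libraries and 0.0559 and 0.0609 for the interceca libraries (limma). SOX2 and PDX1, factors of foregut and of duodenum and pancreas, lay below the filter at 0.0152 and 0.0116 RPKM in ceca and 0.354 and 0.319 RPKM in interceca.

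Among mesodermal partners, 18 of 24 were found and 12 tested, and the calls were 2 higher and 1 lower, with 9 short of the threshold (median log2 difference 0.12). The 3 calls are 25% of those tested, near the 27.5% of all genes. NR2F2, the nuclear receptor COUP-TFII that ZFPM2 is known to bind, was at 280, 239 and 252 RPKM in ceca replicates 1 to 3 and at 125, 135 and 98.1 RPKM in interceca replicates 1 to 3. All ceca libraries lay above all interceca libraries, with a log2 difference of 1.11 ± 0.12 (SE, adjusted p = 0.000291, limma). HAND1, a helix-loop-helix factor of visceral mesoderm, was at 302 ± 13.0 against 230 ± 15.2 RPKM (0.40 ± 0.06, adjusted p = 0.00207, limma). SRF, which drives smooth muscle genes with myocardin, was lower (-0.43 ± 0.05, adjusted p = 0.000708, limma). With the replicate block 4 were higher, since NR2F1 (adjusted p = 0.0287, against 0.0623 without it and 0.161 at most over the alternatives, limma) and MEF2A (0.039, against 0.0914 without it and 0.222 at most) joined them. The cardiac factors NKX2-5, TBX5 and TBX20 stayed below the filter, at 0.0105, 0.0390 and 0.121 RPKM in ceca and 0.0703, 0.0138 and 0.270 RPKM in interceca.

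The corepressors and acetyltransferases through which GATA and ZFPM proteins act were abundant in both tissues and differed by small amounts. Of 13 tested, 8 did not pass, 3 were lower in ceca and 2 higher, and the median log2 difference was -0.04. These are 15.4% higher and 23.1% lower, beside 13.5% and 14.1% of all genes. CTBP2, a corepressor that ZFPM proteins bind, was at 55.7 ± 1.43 against 40.4 ± 0.845 RPKM (0.46 ± 0.04, adjusted p = 0.000198, limma), while CTBP1 had a log2 difference of -0.07 ± 0.04 (adjusted p = 0.233). The NuRD subunits RBBP7, MTA3 and HDAC1 were lower, with log2 differences of -0.28 ± 0.06, -0.26 ± 0.05 and -0.21 ± 0.05. CREBBP, an acetyltransferase, was higher (0.31 ± 0.08, adjusted p = 0.0257, limma), and its adjusted p became 0.0747 or 0.0779 on leaving out ceca replicate 1 or 2, and 0.0599 on leaving out interceca replicate 3. The adjusted p of HDAC1 was 0.0218 (limma), 0.0576 with no trend, 0.0619 or 0.0793 on leaving out ceca replicate 1 or 3, and 0.0729 or 0.064 on leaving out interceca replicate 2 or 3. With the replicate block 4 were higher, the others being EP300 (adjusted p = 0.00264, against 0.0744 without it) and CHD4 (0.0283, against 0.151 without it). GATAD2B was listed at 0 in every library, and whether its RNA was absent was not tested.

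Of 24 genes known as GATA targets in heart, gut, gonad or early endoderm, 11 were tested, with 3 higher, 4 lower and 4 not past the threshold, or 27.3% higher and 36.4% lower beside 13.5% and 14.1% of all genes. FABP2, the intestinal fatty acid binding protein, was at 0.151 ± 0.0533 against 1.76 ± 0.583 RPKM (log2 difference -1.76 ± 0.24, adjusted p = 0.00113, limma), and TNNC1, a cardiac and slow muscle troponin, had a log2 difference of -1.25 ± 0.13. COL4A1 and COL4A2, basement membrane collagens, had log2 differences of -0.68 ± 0.09 and -0.71 ± 0.12. SLC10A2, the ileal bile acid transporter, which GATA4 represses in the mouse jejunum, was higher in ceca. It was at 1.68, 5.64 and 3.60 RPKM in ceca replicates 1 to 3 and at 0.379, 0.563 and 0.634 RPKM in interceca replicates 1 to 3 (1.90 ± 0.35, adjusted p = 0.00488, limma). SLC10A2 reached 1 RPKM only in ceca and FABP2 only in interceca. Each thus passed the filter only through the tissue where it was higher. Neither lost its call in any alternative where it was tested. BMP4, a ligand of gut mesenchyme, and DAB2, an endocytic adaptor, had log2 differences of 0.85 ± 0.08 and 0.47 ± 0.08. The steroid enzyme gene CYP19A1 was listed at 0 in every library, and whether its RNA was absent was not tested.

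Among partners of GATA factors in blood and endothelium 1 of 7 tested was higher and none lower, with a median log2 difference of -0.05 (limma, 0 lower at an unadjusted p under 0.05 and 0 lower with limma-voom). That is 14.3% higher and 0% lower, beside 13.5% and 14.1% of all genes. The gene that passed was LDB1, an adaptor that joins GATA and TAL1 complexes, at 114 ± 4.78 against 92.3 ± 6.94 RPKM (0.31 ± 0.06, adjusted p = 0.00829, limma). TAL1 was at 3.99 ± 0.413 against 4.67 ± 1.24 RPKM and LMO2 at 9.88 ± 1.38 against 10.2 ± 0.994 RPKM, and neither passed.

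**Figure D5:**
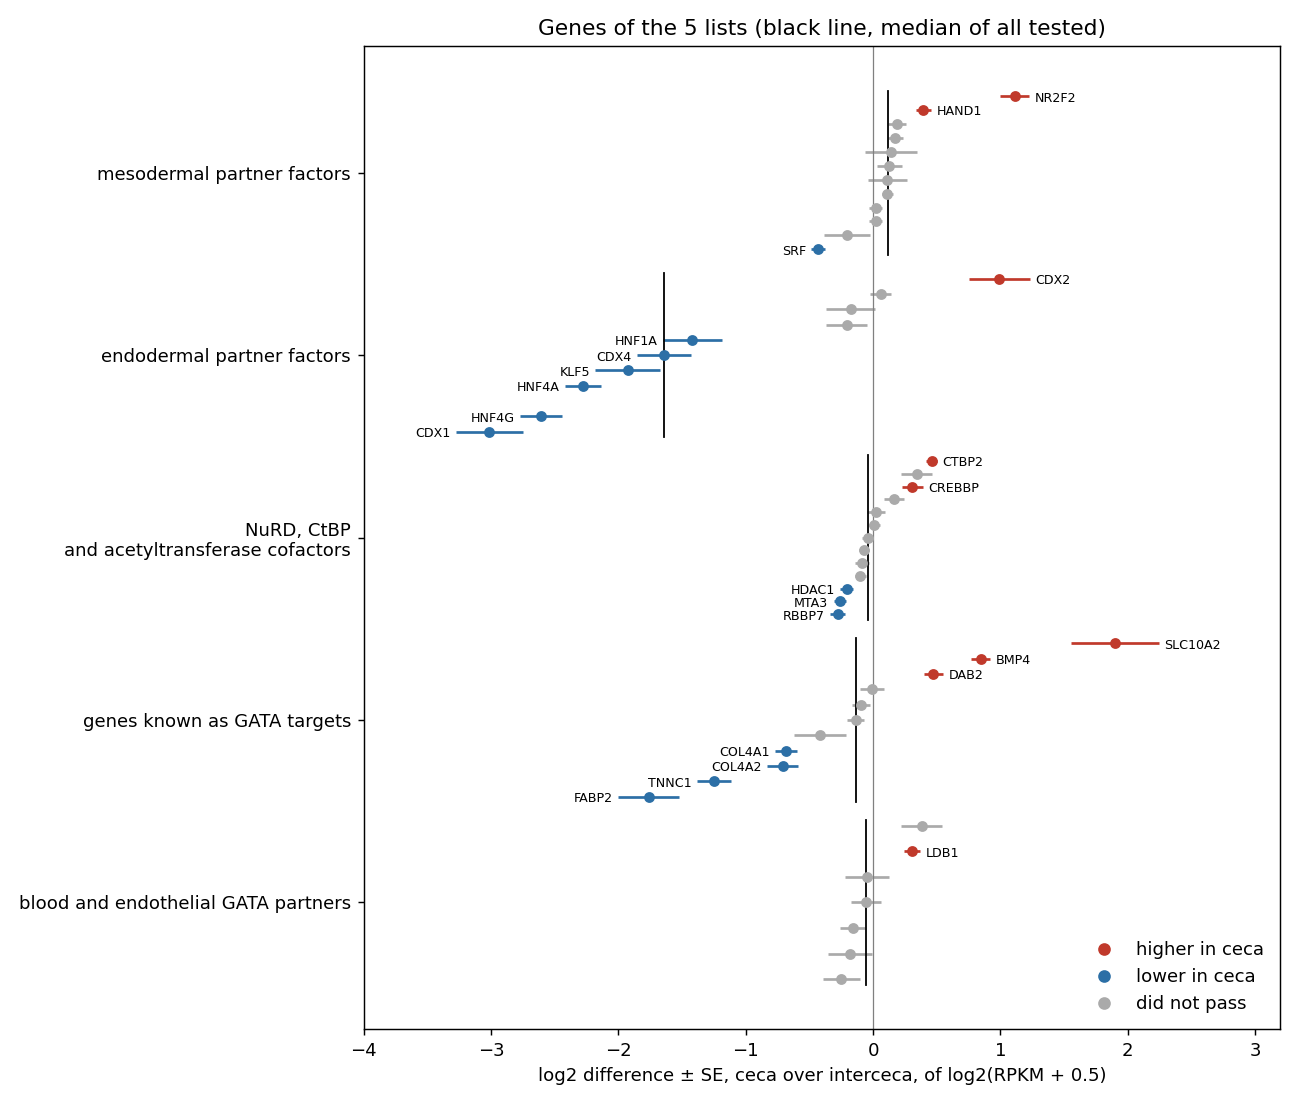
Log2 difference ± SE, ceca over interceca, of the genes tested in the 5 lists of GATA partners and targets (1 endodermal gene is not drawn), 1 point per gene, red for higher in ceca, blue for lower and grey for not past the threshold, with a black line at the median of all genes tested in the list. The endodermal partners lie to the left with CDX2 to the right, while the other 4 medians lie between -0.14 and 0.12.

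Genes whose profile over the 6 libraries lay nearest to each member were found by the root mean square difference of gene-centred log2(RPKM + 0.5). Nearest to ZFPM2 were CYP26A1, which degrades retinoic acid, at 0.13, the noradrenaline transporter SLC6A2 at 0.20 and PXDNL at 0.21. CYP26A1 was at 35.2 ± 2.15 against 5.80 ± 0.657 RPKM. Nearest to GATA6 were VTN, vitronectin, at 0.12, the epithelial protease TMPRSS2 at 0.16 and CDX1, under its older symbol, at 0.18. VTN was at 6.11, 9.96 and 11.02 RPKM in ceca replicates 1 to 3. It was picked for its nearness to GATA6 over these libraries, so its low replicate 1 is no separate observation.

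GATA5 had TMEM150A, SLC24A5 and RHOC nearest, at 0.10, 0.10 and 0.11, and none of them was among the 3 nearest to GATA6. The distance between GATA5 and GATA6 was 0.83, which includes the unlike size of their log2 differences (-1.44 and -2.87). GATA2 had SCG3, a secretogranin of neuroendocrine cells, at 0.15, then FGL1 and GYG2, with log2 differences of -0.53, -0.35 and -0.49. ZFPM1 had VOPP1, C3H2ORF43 and PANK3 at 0.04 to 0.05, with log2 differences of 0.34, 0.46 and 0.37. The genes nearest to GATA3 and GATA4, which lay below the filter, are not named because their log2(RPKM + 0.5) profiles are flattened by the pseudocount.

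The genes next to the 7 on their chromosomes had small log2 differences or were below the filter. In the gene order of the assembly GRCg7b, 14 protein-coding neighbours were found and 7 were tested, with log2 differences of -0.12 to 0.28. LRP12 and OXR1, on either side of ZFPM2, were at 15.3 ± 0.445 against 13.8 ± 0.579 RPKM and at 12.1 ± 0.778 against 10.6 ± 0.548 RPKM (adjusted p = 0.129 and 0.114, limma). The neighbours of GATA5, RBBP8NL and SLCO4A1, lay below the filter. They were at 0.168 ± 0.0396 against 0.405 ± 0.115 RPKM and at 0.172 ± 0.0483 against 0.428 ± 0.115 RPKM. Both means were higher in interceca, as for GATA5, and this was not tested. RBBP8, beside GATA6, had a log2 difference of -0.07 ± 0.07. MIB1, on its other side, was at 63.6 ± 2.75 against 55.8 ± 3.43 RPKM (0.19 ± 0.06, adjusted p = 0.0491, limma). The call of MIB1 was lost without any 1 of the 6 libraries, at 0.0578 to 0.139.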

How the data were processed

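RPKM of 6 libraries were analysed as the authors deposited them, in 1 file per library and in a table of the whole series, whose RPKM columns equal the 6 files. The tools named in the submitters' processing notes are edgeR, HTSeq, STAR and bcl2fastq, and the build is galGal4. Whether counting used strand is not stated, nor are settings and annotation. The deposited table also holds the authors' log2 fold change, p-values and FDR, and the -log10 of the FDR, per the file headers. The total row and a blank row were left out.

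The test was limma 3.58.1 (R 4.3.3, trend, two-sided, tissue the only term) on log2(RPKM + 0.5). It took the 10678 genes that reached 1 RPKM in 3 or more libraries, with Benjamini-Hochberg adjustment over all of them and a threshold of 0.05. This called 1439 genes higher in ceca and 1502 lower. GATA3 and GATA4 take their log2 difference and SE from the same fit without the filter. Whole reads and gene lengths were recovered from the RPKM steps, within 0.01 read, for 14079 of the 14080 genes above 0. Tables were made with Python 3.11.15.

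The members, the 11 lists (171 genes, 142 found, 7 of them under an older symbol) and the tests were chosen with earlier results of these data known. In each list the up to 4 genes with the smallest p in each direction are named, except for a result that is not reported here, and further genes were named after their values were seen. Replicate numbers are shared by the tissues. Deviations from the tissue means correlated across genes between same-numbered libraries at 0.364, 0.227 and 0.213. Between differently numbered libraries the correlations ran from -0.238 to 0.031. The numbers may therefore pair the libraries, though the labels do not say so. The main calls come from the fit with tissue the only term, which does not use such a pairing. With the replicate number added as a block, the alternative fit, 1879 genes were higher in ceca and 1888 lower.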

Additional observations from a re-analysis of the deposited data

How the results depend on the processing

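The signs of the log2 differences of the 7 genes were the same under every alternative run, although GATA2, GATA3 and GATA4 do not pass the filter at 5 RPKM. Leaving out 1 library gave -3.04 to -2.55 for GATA6, -1.58 to -1.33 for GATA5, -0.76 to -0.33 for GATA2, 0.37 to 0.47 for ZFPM1 and 2.47 to 2.63 for ZFPM2. A pseudocount of 0.1 gave -1.75 for GATA3, -0.73 for GATA4 and 2.69 for ZFPM2, a pseudocount of 1 gave -0.57 for GATA3 and 2.39 for ZFPM2, and limma-voom on recovered reads gave -2.40, -1.62 and 2.72 for these 3 genes. With the replicate block, 4 cofactors, 4 mesodermal partners and 4 neural genes (lower) were called, against 2, 2 and 1, and it changed no other list count by more than 1.5 times except 1 red blood cell gene against 0. Leaving out a library gave 900 to 1286 genes higher and 999 to 1316 lower, the lowest counts being without ceca replicate 3 and without interceca replicate 2, and 1 to 3 cofactors and 0 to 1 endodermal partners higher. With no filter 2 mesodermal partners were lower. With no filter, no trend or limma-voom 2 blood partners were higher, KIT joining LDB1. KIT reached 1 RPKM only in ceca. At 5 RPKM 0 endodermal partners were higher and 2 GATA targets lower, since CDX2, FABP2 and TNNC1 did not pass that filter. Among markers, leaving out a library gave 0 to 5 neural genes lower and 0 to 2 red blood cell genes higher. At 5 RPKM 1 mesothelial gene was lower, since MSLN and UPK1B did not pass that filter. Endothelial genes higher came to 0 with no filter, median-of-ratios scaling and no trend, and 1 endothelial gene, TEK, was lower with limma-voom. Apart from the genes named as not passing a filter, the cause of these changes was not tested. Few reads limit GATA4, with 6 in ceca and 17 in interceca. The size of the log2 differences of GATA3 and GATA4 varied with the pseudocount.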
